A study of Mus musculus with 12 samples.

Results

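RNA-binding proteins that act on splicing, mRNA transport, stability and translation were followed through their ribosome-bound mRNAs in CA1 pyramidal neurons of the hippocampus. The 66 genes described here belong to 13 families, Srsf, Hnrnp, Elavl, Celf, Rbfox, Nova, Pum, Stau, Cpeb, Khdrbs, Ptbp, Mbnl and Igf2bp. They were picked by gene symbol from the 24079 genes of the deposited table, and had to reach 15 reads summed over the 12 libraries. The families were chosen with earlier results of these data known. All 66 symbols that matched reached this count, as did 17823 genes in all. The libraries hold RNA that came down with Rpl22, a ribosomal protein carrying the HA tag, from whole hippocampus, 6 from wild-type and 6 from Fmr1-/y mice (written Frm1 knockout in the sample labels). Both genotypes carried the Wfs1-CreERT2 and RiboTag alleles, so that Cre driven by the Wfs1 promoter switched the tag on after tamoxifen (100 mg/kg, 3 days), and the hippocampus was collected after a further 1 week. The mice were 2 to 6 months old, and the hippocampi of 4 to 6 of them were pooled for 1 library. The Fmr1-/y mice lack FMRP, itself an RNA-binding protein, and the comparison asks which ribosome-bound mRNAs differ without it. The replicates are such pools, so each p-value reads a difference against the spread between pools. In these bulk samples, fewer cells of a type and less RNA per cell cannot be told apart.

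SR proteins (the Srsf family) bind exonic sequences and recruit the splicing machinery, while many hnRNP proteins coat nascent transcripts and often act against them at the same exons. Neurons add regulators of their own, such as the Rbfox, Nova, neuronal Elavl and Celf proteins, which set the inclusion of exons in channels, receptors and synaptic adhesion molecules. In the cytoplasm, Pumilio, Cpeb, Staufen and Igf2bp proteins bind 3' UTRs and take part in mRNA storage, transport into dendrites, and the control of translation and decay.

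Several of these proteins recognise short RNA motifs, and the 3' UTRs of some members hold them. The last 500 bases of the longest annotated 3' UTR were searched on the RNA strand for TGCATG (bound by Rbfox proteins), TGTANATA (Pumilio), TTTTAT (Cpeb) and TATTTAT (an AU-rich element of the kind Elavl proteins bind), with T written for U. TTTTAT and TATTTAT can overlap at their ends. Of the 63 members with a window of this length, 6 (9.52%) held TGCATG, 9 (14.3%) TGTANATA, 30 (47.6%) TTTTAT and 12 (19.0%) TATTTAT. Among the 11850 genes with such a window the shares were 16.1%, 14.1%, 39.4% and 15.1%. Elavl1 held 8 copies of TATTTAT and Cpeb2 held 8 of TTTTAT. The 6 sites below are examples in which one family's motif lies in another family's mRNA. The first 4 are Pumilio motifs in Rbfox3 and in 3 Celf genes, and the last 2 are Rbfox motifs in the paralogues Hnrnph1 and Hnrnph2. Other such sites, not printed, lie in Srsf5, Ptbp3, Khdrbs1, Elavl2, Hnrnph3, Hnrnpll and Igf2bp1. Capitals mark the motif, each is written 5' to 3' on the RNA strand, and positions are on GRCm38, the same build as mm10. A match is a description and no evidence of binding in these cells.
Rbfox3 (chr11:118489951-118489980, minus strand): tctattcctgaTGTACATAgccccgcgcct
Celf3 (chr3:94491815-94491844, plus strand): tggcccctccaTGTAAATAccatgaccacc
Celf5 (chr10:81459503-81459532, minus strand): tgtttacgagcTGTAAATAccatttttata
Celf6 (chr9:59606993-59607022, plus strand): aggcttgctgcTGTAAATActgccactgag
Hnrnph1 (chr11:50386203-50386232, plus strand): aacactgttgaTGCATGttgaaaaacatgc
Hnrnph2 (chrX:134606721-134606750, plus strand): aaaacttcagaTGCATGttgaaaaacatgc

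Between 39400980 and 65565479 reads per library were counted on genes, and the 66 members together took 1.12% to 1.24% of them after scaling. Fmr1, the gene deleted, was counted with 1971 to 2608 reads per wild-type library, with 0 in 5 Fmr1-/y libraries and with 1 in the other, which fits the labels. The CA1 pyramidal markers fixed for the check, Camk2a, Wfs1, Slc17a7 and 4 others, were all detected and summed to 8362 to 10380 CPM (reads of a gene scaled to a common library size by TMM) in wild-type and 8069 to 9595 CPM in Fmr1-/y libraries. RNA of other cells was present too: the 5 choroid plexus markers, Ttr foremost, summed to 6238 to 11663 CPM in wild-type libraries and 8171 to 17174 CPM in Fmr1-/y libraries. The 7 astrocyte markers summed to 2379 to 2875 CPM and 2592 to 3925 CPM, respectively. None of these markers passed the adjusted threshold between genotypes in edgeR, although 4 of 7 astrocyte, 4 of 5 choroid plexus and 3 of 5 endothelial markers had higher estimates in Fmr1-/y libraries at an unadjusted p under 0.05, and 2 of 7 CA1 markers lower ones. Estimates were below 0 for all 7 CA1, all 5 dentate granule, 7 of 9 GABAergic and 5 of 6 oligodendrocyte markers. They were above 0 for all 7 astrocyte, 5 choroid plexus and 5 endothelial markers. So were 4 of 7 CA2 and CA3 and 4 of 6 microglial markers. The part of this shift in the members' values was not tested.

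The mRNAs of most of these RNA-binding proteins were well detected in the HA immunoprecipitates, and no member passed the test between genotypes. Without an input library beside them, the share that came from tagged ribosomes was not measured. In edgeR, 0 of the 66 members came under 0.05 after adjustment, against 4 of the 17823 genes tested (0.0224%). DESeq2 called 0 members as well, against 84 of the 17823 genes entered (0.471%). It leaves some genes of low count without an adjusted p, Igf2bp1 and Igf2bp3 among them. With limma voom, 0 members were called, against 4 genes (0.0224%). At an unadjusted p under 0.05, edgeR gave 2 members with a lower level in Fmr1-/y libraries, Rbfox3 among them, against 654 genes overall (3.67%), and 1 with a higher level, Srsf6, against 764 genes (4.29%). Without Fmr1-/y replicate 5 there was 0 in either direction. Members in which all 6 Fmr1-/y libraries lay below all 6 wild-type ones numbered 0, against 73 genes (0.41%), and those with all 6 above numbered 0, against 38 genes (0.213%). The median log2 fold change of the members, Fmr1-/y over wild type, was -0.017, beside 0.0042 over all genes, with 40 estimates below 0 and 26 above (8670 and 9153 over all genes).

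These small differences were measured with good precision. The 95% interval of the log2 fold change stayed within 0.3 on either side of 0 in 51 members, all of them among the 60 with a mean of at least 20 CPM. Among all 7645 genes at or above that level, it did so in 5749. In those 60 members the estimates ran from -0.17 to 0.17. The biological coefficient of variation, the spread between pools beyond counting error, had a median of 9.13% in them and of 10.1% over all genes of that level. The 6 members under 20 CPM were Srsf12, Khdrbs2, Mbnl3 and the 3 Igf2bp genes, and their intervals were wider.

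**Figure D1:**
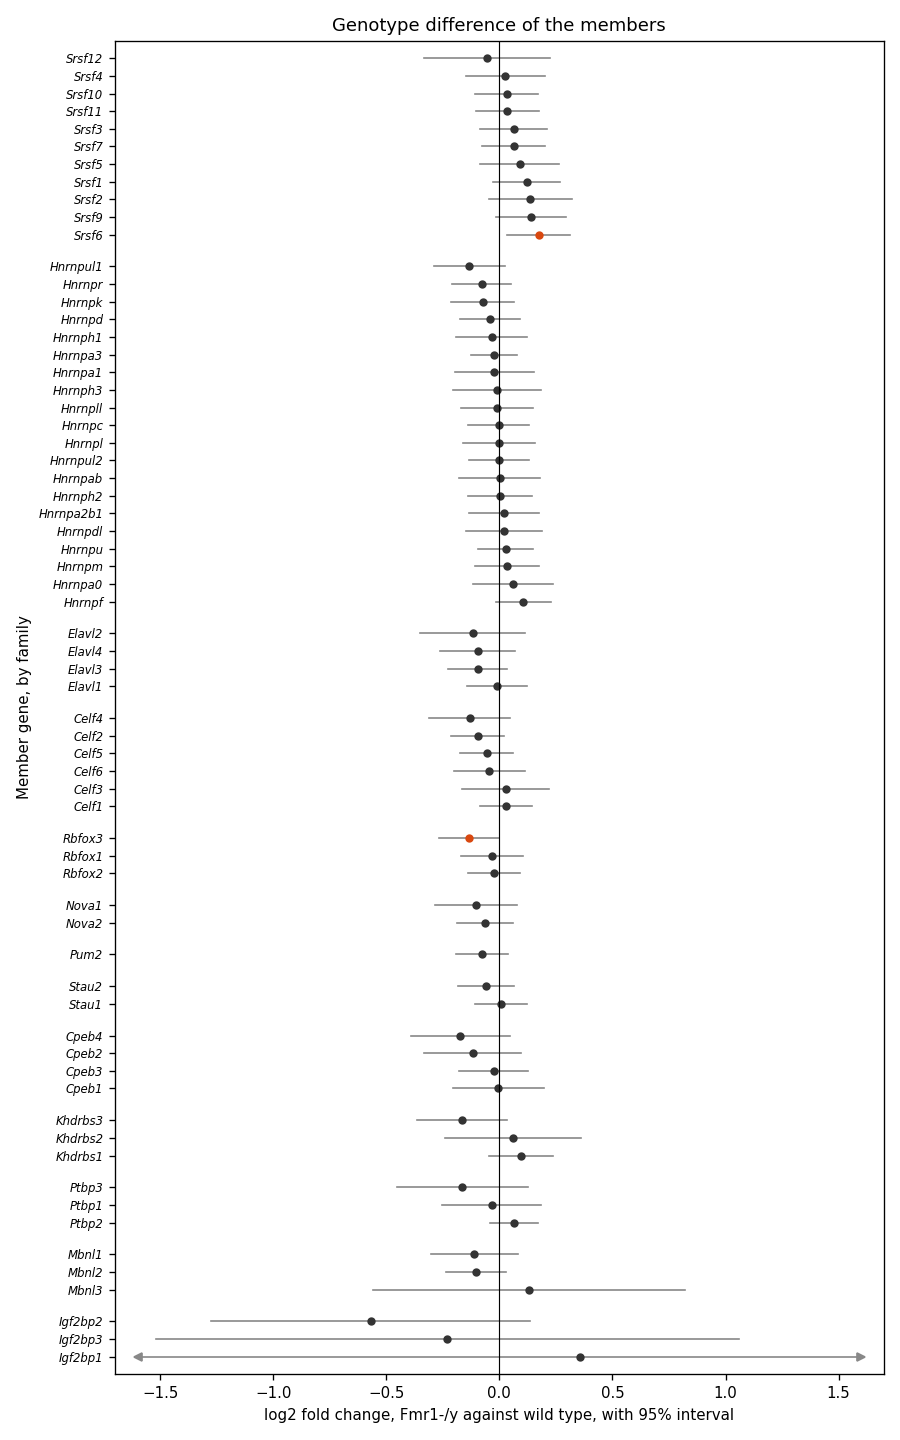
Log2 fold change of the members, Fmr1-/y over wild type, with its 95% interval from edgeR, grouped by family; orange points had an unadjusted p under 0.05. Most intervals lie within 0.3 of 0, and the widest belong to Igf2bp1, Igf2bp2, Igf2bp3 and Mbnl3; arrowheads mark the interval of Igf2bp1, which runs past the axis on both sides.

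To rank the members against each other, CPM were divided by the exon length of each gene in kilobases. Hnrnpa2b1, an hnRNP protein known to bind RNAs destined for dendrites, was the highest at 337 ± 25.2 CPM per kilobase in wild-type libraries (SD, n = 6) and 341 ± 36.5 in Fmr1-/y libraries. Srsf5 followed at 196 ± 15.6. Next came Rbfox1 at 145 ± 9.71, Khdrbs3 at 143 ± 15.8, Hnrnph1 at 134 ± 11.7 and Hnrnpul2 at 129 ± 7.23 CPM per kilobase, and these neighbours lay within 1 SD of each other. Celf4 stood at 112 ± 10.8. At the other end were Khdrbs2 (0.561), Igf2bp2 (0.271), Mbnl3 (0.136), Igf2bp3 (0.063) and Igf2bp1 (0.010 CPM per kilobase). The abundant members thus included both general splicing factors and regulators that mark neurons. The plot of levels in each library shows the order within each family.

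**Figure D2:**
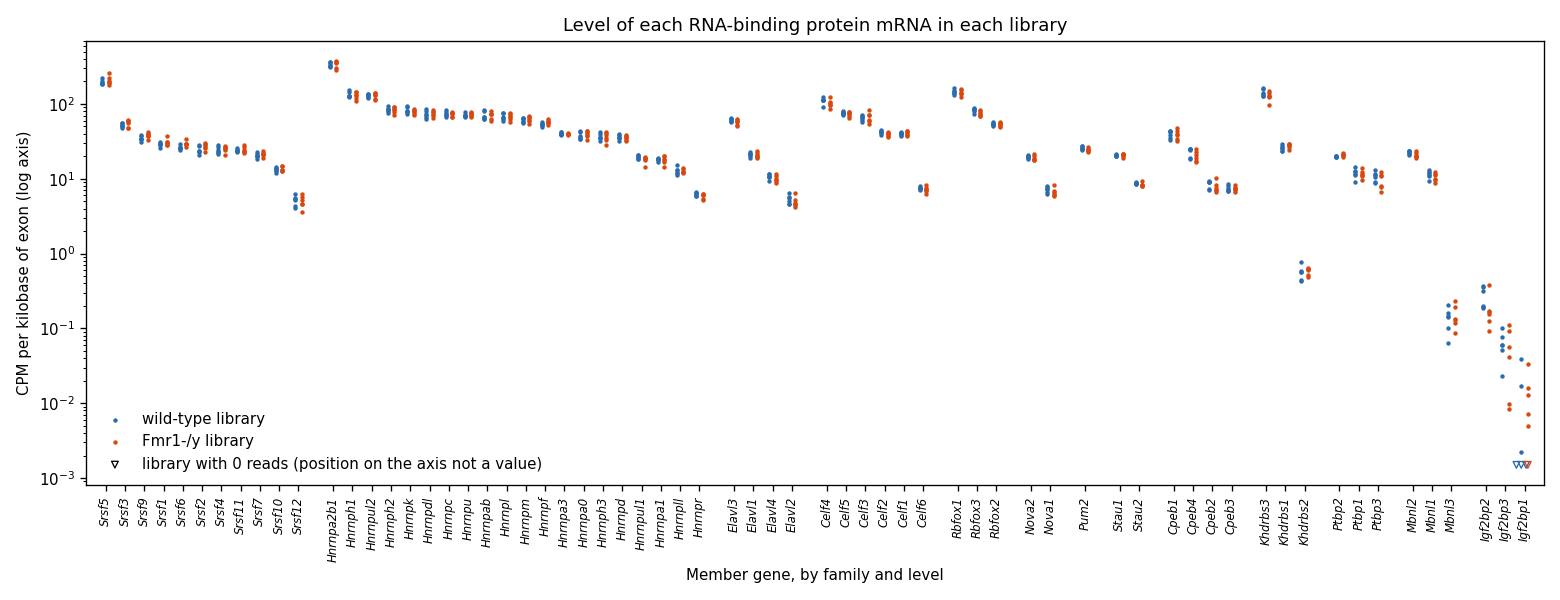
Level of the members in each of the 12 libraries, in CPM per kilobase of exon on a log axis, ordered by family and by level within a family; blue points are wild-type and orange points Fmr1-/y libraries, and open triangles mark the 4 libraries in which Igf2bp1 had 0 reads. The points of both genotypes overlap in every member shown, and levels span from 337 for Hnrnpa2b1 to 0.010 for Igf2bp1.

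Some of these levels are uncertain because the sequences are shared. In 7 of the 66 members, more than 20% of the distinct 50-base stretches of their transcripts, the read length used, also occur in another annotated gene. The share was 40.4% for Hnrnpf, 31.5% for Srsf3, 24.1% for Hnrnpk and 23.6% for Srsf5. It was highest for Hnrnpa1 (46.7%, shared with 19 genes), named here for this reason only. Hnrnph2 shared 15.9%. Reads from such stretches cannot be assigned to 1 gene with certainty.

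The SR protein estimates lay mostly on one side of 0. Of 11 Srsf members, 10 had estimates above 0 and 1 (Srsf12) below, where 9153 of 17823 estimates were above 0 over all genes. The 11 members had a median log2 fold change of 0.06, and 0 passed the adjusted threshold in edgeR. Their summed level was 1086 ± 63.2 CPM (SD, n = 6) over the wild-type libraries, from 1032 to 1200 CPM, against 1155 ± 99.9 CPM (n = 6) over the Fmr1-/y libraries, from 1025 to 1319 CPM. These ranges overlap. The highest sum was that of Fmr1-/y replicate 5, which was also the highest of the 12 libraries in 6 of the 11 members, and without it 9 of 11 estimates were above 0 with a median of 0.05. The median was 0.10 without Fmr1-/y replicate 3 and also without replicate 4. With library size alone in place of TMM the count was again 10 of 11.

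Srsf6 (chromosome 2, 162931508 to 162937121), an SR protein known to regulate exon choice in tau transcripts, had the smallest edgeR p of all members. It did not in DESeq2. Its wild-type libraries were at 89.4 CPM at the lowest, 95.8 at the median and 109 at the highest, and its Fmr1-/y libraries at 99.4, 107 and 127 CPM. All 6 Fmr1-/y libraries lay above the wild-type median, and 1 lay above every wild-type library. The log2 fold change was 0.17 (SE 0.07, edgeR adjusted p 0.496), which puts the Fmr1-/y level at 113% of wild type with a 95% interval of 102% to 124%. Srsf9, a small SR protein (chromosome 5, 115327163 to 115333843), was at 36.0, 39.4 and 44.5 CPM in wild-type libraries and at 38.4, 44.8 and 49.2 CPM in Fmr1-/y libraries. Here 3 Fmr1-/y libraries exceeded all wild-type ones, and the log2 fold change was 0.14 (SE 0.07, edgeR adjusted p 0.687). Srsf1, the prototype of the family (chromosome 11, 88046499 to 88053757), was at 143, 160 and 173 CPM against 157, 170 and 210 CPM. Its log2 fold change was 0.12 (SE 0.07, edgeR adjusted p 0.731), and it was 0.06 without Fmr1-/y replicate 5. Srsf5 and Srsf3, the highest SR mRNAs per kilobase, had log2 fold changes of 0.09 (SE 0.08) and 0.06 (SE 0.07). Srsf3 is known to control the splicing of its own transcript. Srsf12, the lowest of the family at 5.14 CPM per kilobase in wild-type libraries, had a log2 fold change of -0.05 (SE 0.13).

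The hnRNP genes, the largest family with 20 members, were balanced. There were 12 estimates below 0 and 8 above, with a median log2 fold change of -0.0029, and 0 members passed in edgeR. With library size alone in place of TMM the split turned to 6 below and 14 above, and over the alternatives 5 to 14 were above. The wild-type libraries summed to 5277 ± 334 CPM and the Fmr1-/y libraries to 5271 ± 384 CPM. Single libraries stood out in this family: wild-type replicate 6 was the highest of 12 libraries in 10 of the 20 genes, and Fmr1-/y replicates 3 and 4 were the lowest in 7 genes each. In all 20 members the 95% interval lay within 0.3 of 0.

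Hnrnpf (chromosome 6, 117900340 to 117925622), which binds runs of guanines near splice sites, was at 141 CPM at the lowest, 153 at the median and 166 at the highest in wild-type libraries. In Fmr1-/y libraries it was at 150, 164 and 182 CPM. The ranges overlap, 5 Fmr1-/y libraries lay above the wild-type median, and the log2 fold change was 0.10 (SE 0.06, edgeR adjusted p 0.705). Hnrnpul1 (chromosome 7, 25721161 to 25756268), an hnRNP protein also known from the DNA damage response, was at 72.0, 77.4 and 83.3 CPM in wild-type libraries and 56.3, 73.1 and 76.6 CPM in Fmr1-/y libraries. No Fmr1-/y library lay above the wild-type median, and the log2 fold change was -0.13 (SE 0.07, edgeR adjusted p 0.709). The abundant members stood close to 0. Hnrnpa2b1 had a log2 fold change of 0.02 (95% interval -0.14 to 0.17). Those of Hnrnph1, Hnrnpul2, Hnrnph2 and Hnrnpk were -0.03, -0.0021, 0.0033 and -0.07. Hnrnph1 and Hnrnph2 carry the paired Rbfox motifs printed above, and their levels were 134 ± 11.7 and 83.8 ± 5.73 CPM per kilobase in wild-type libraries. Hnrnpr was the lowest of the family at 6.21 CPM per kilobase, a value that rests on its annotated exon length of 21483 bases.

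**Figure D3:**
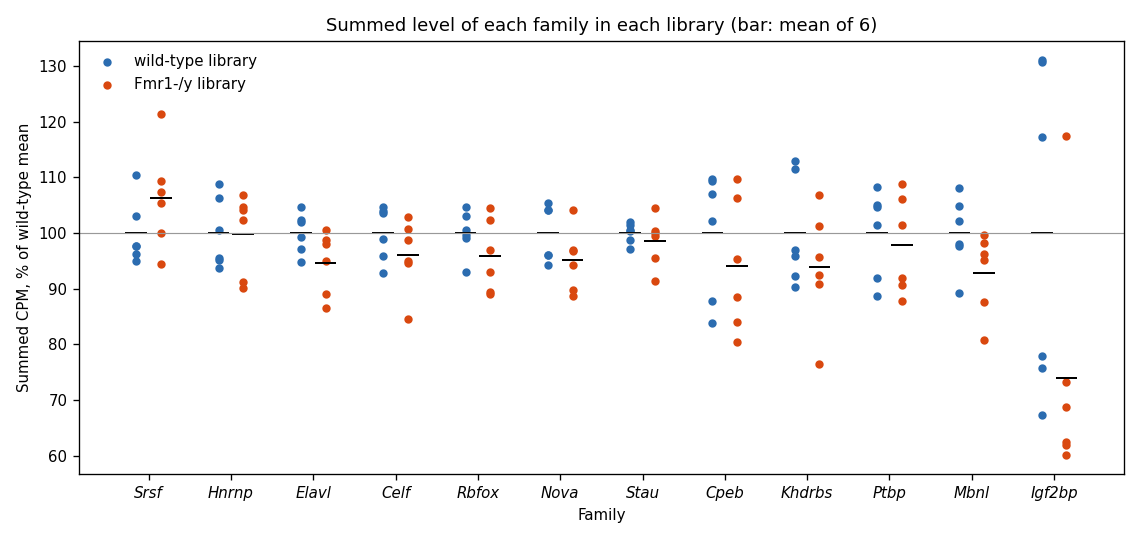
Summed CPM of 12 families in each library, as a percent of the wild-type mean of each family; blue points are the 6 wild-type and orange points the 6 Fmr1-/y libraries, and bars are means. The genotypes overlap in all 12, the Srsf sum of Fmr1-/y replicate 5 (1319 CPM) is the highest of that family, and the Igf2bp sums, all under 2 CPM, spread the most.

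Outside these 2 large families, 27 of 35 estimates were below 0, with a median log2 fold change of -0.06, and 0 passed in edgeR. Over all genes 8670 of 17823 estimates were below 0, and 4018 of 7645 among those with a mean of at least 20 CPM. The CA1 pyramidal markers leaned the same way, with all 7 below 0. So did all 5 dentate granule, 7 of 9 GABAergic and 5 of 6 oligodendrocyte markers. All 7 astrocyte, 5 choroid plexus and 5 endothelial markers, 4 of 7 CA2 and CA3 and 4 of 6 microglial markers were above 0. The part of these leans in the families' values was not tested. All 3 Rbfox, 2 Nova, 4 Elavl and 4 Cpeb estimates were below 0 in the main scaling. With library size alone, Elavl1 and Cpeb1 turned above 0 and the others did not. Without Fmr1-/y replicate 5, and also without wild-type replicate 2, only 2 of the 4 Cpeb estimates were below 0. Cpeb had 3 of 4 below 0 when wild-type replicate 3 or 4, or Fmr1-/y replicate 1 or 2, was left out. Elavl had 3 of 4 without wild-type replicate 1 or Fmr1-/y replicate 3 or 4. Rbfox had 2 of 3 without Fmr1-/y replicate 1, and both Nova estimates stayed below 0. The Rbfox proteins bind TGCATG next to alternative exons. Rbfox3 (chromosome 11, 118489760 to 118911597), the antigen known as NeuN, was at 359 CPM at the lowest, 416 at the median and 431 at the highest in wild-type libraries, and at 339, 367 and 409 CPM in Fmr1-/y libraries. No Fmr1-/y library reached the wild-type median, and 2 lay below every wild-type library. Its log2 fold change was -0.13 (SE 0.06, edgeR adjusted p 0.621), and the Fmr1-/y level was 91.1% of wild type with a 95% interval of 83.1% to 99.9%. Rbfox1 and Rbfox2 had log2 fold changes of -0.03 (SE 0.07) and -0.02 (SE 0.05). Per kilobase, Rbfox1 stood above Rbfox3, with a ratio of 1.76 ± 0.0752 in wild-type and 1.88 ± 0.0654 in Fmr1-/y libraries (SD, n = 6). In 3 Fmr1-/y libraries this ratio exceeded that of every wild-type library.

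Of the Nova proteins, which were first described as neuronal antigens of a paraneoplastic disorder, Nova2 was the more abundant. It was at 19.7 ± 0.992 CPM per kilobase in wild-type libraries beside 7.18 ± 0.634 for Nova1. The ratio of Nova2 to Nova1 was 2.76 ± 0.235 in wild-type and 2.86 ± 0.417 in Fmr1-/y libraries, a difference smaller than 1 SD. Their log2 fold changes were -0.06 (SE 0.06) and -0.10 (SE 0.09). Ptbp2, the polypyrimidine tract protein that takes over from Ptbp1 as neurons form, was at 19.9 ± 0.366 CPM per kilobase, above Ptbp1 at 11.9 ± 1.81, and the ratio was 1.71 ± 0.273 in wild-type and 1.82 ± 0.256 in Fmr1-/y libraries. In CPM, Ptbp2 was tightly held in wild-type libraries, at 95.9, 97.3 and 100 CPM (lowest, median, highest), and was at 96.1, 101 and 108 CPM in Fmr1-/y libraries. Thus 5 of 6 Fmr1-/y libraries lay above all wild-type ones, yet the log2 fold change was 0.06 (95% interval -0.04 to 0.17, edgeR adjusted p 0.822). Ptbp1 had a log2 fold change of -0.03 (SE 0.10) and Ptbp3 one of -0.16 (SE 0.14).

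The Celf proteins, which regulate both splicing and mRNA decay, were led by Celf4 at 112 and Celf5 at 76.3 CPM per kilobase in wild-type libraries. Measured per kilobase of coding length instead, Celf5 came first. Celf3 stood at 65.2, Celf2 at 41.9, Celf1 at 39.9 and Celf6 at 7.49 CPM per kilobase. Celf2 (chromosome 2, 6539694 to 7396341) was at 373, 408 and 438 CPM in wild-type libraries and 351, 388 and 407 CPM in Fmr1-/y libraries, with no Fmr1-/y library above the wild-type median. Its log2 fold change was -0.10 (SE 0.06, edgeR adjusted p 0.731). Celf4, known for binding many mRNAs of excitatory neurons, was at 383, 473 and 521 CPM against 356, 419 and 517 CPM, and its log2 fold change was -0.13 (SE 0.08, edgeR adjusted p 0.770). Celf3, Celf5 and Celf6, which carry the Pumilio motifs printed above, had log2 fold changes of 0.03, -0.06 and -0.05. Celf1 had one of 0.03 (95% interval -0.09 to 0.15).

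Elavl1, the widely expressed HuR, was at 21.0 ± 1.39 CPM per kilobase in wild-type libraries, and the neuronal Hu proteins ranged from Elavl3 at 61.3 ± 3.01 through Elavl4 at 10.7 ± 0.854 to Elavl2 at 5.33 ± 0.739. The 3 neuronal members together stood at 3.70 ± 0.391 times Elavl1 in wild-type and 3.49 ± 0.459 times in Fmr1-/y libraries. In CPM, Elavl3 was at 391, 425 and 444 in wild-type and 352, 401 and 440 in Fmr1-/y libraries, with 3 Fmr1-/y libraries below every wild-type one. The log2 fold changes were -0.10 (SE 0.06) for Elavl3, -0.10 (SE 0.08) for Elavl4, -0.12 (SE 0.11) for Elavl2 and -0.01 (SE 0.06) for Elavl1, whose 3' UTR holds the AU-rich copies counted above.

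Khdrbs3, also called SLM2, controls an alternative exon of neurexins and followed Rbfox1 in the ranking, at 143 ± 15.8 CPM per kilobase in wild-type libraries. Its 6 wild-type libraries (chromosome 15, 68928392 to 69101794) were at 241 CPM at the lowest, 261 at the median and 312 at the highest, against 181, 241 and 282 CPM in Fmr1-/y libraries. The 3 lowest Fmr1-/y libraries lay under all wild-type ones, and the log2 fold change was -0.17 (SE 0.09, edgeR adjusted p 0.710). Khdrbs1 (Sam68) had a log2 fold change of 0.10 (SE 0.07), and Khdrbs2 (SLM1) one of 0.06 (SE 0.14) at 5.73 ± 1.26 CPM in wild-type libraries. The muscleblind proteins shape splicing in the adult brain. Mbnl2 (chromosome 14, 120275652 to 120431698) was at 99.6, 108 and 111 CPM in wild-type libraries and 88.7, 95.7 and 111 CPM in Fmr1-/y libraries, where 4 of 6 lay below all wild-type ones. Its log2 fold change was -0.10 (SE 0.06, edgeR adjusted p 0.740). Mbnl1 had one of -0.11 (SE 0.09), and Mbnl3, at 18 to 66 reads per library, one of 0.13 (SE 0.33).

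Pumilio proteins repress mRNAs that hold TGTANATA in their 3' UTR. Pum2 was at 156 CPM at the lowest, 165 at the median and 180 at the highest in wild-type libraries, against 148, 159 and 172 CPM in Fmr1-/y libraries. The ranges overlap, and the log2 fold change was -0.08 (SE 0.06, edgeR adjusted p 0.809). The 9 members that hold a Pumilio motif in the searched window had 6 log2 fold changes below 0 and 3 above. Examples are -0.13 for Rbfox3 and 0.09 for Srsf5. Of all 66 members, 40 were below 0, a like share.

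**Figure D4:**
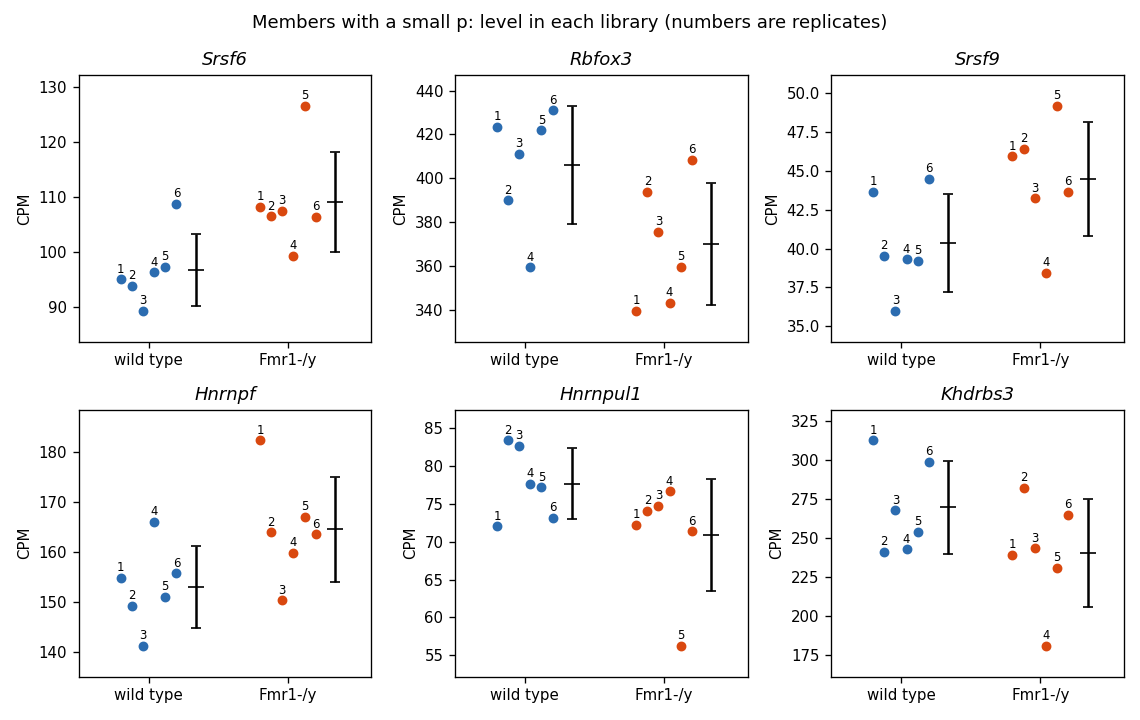
CPM of 6 members with a small unadjusted p (Srsf6, Rbfox3, Srsf9, Hnrnpf, Hnrnpul1 and Khdrbs3) in each library, with the replicate number beside each point and the mean ± SD of the 6 libraries of a genotype; the axes do not start at 0. The genotypes overlap in every panel, 2 Fmr1-/y libraries lie below all wild-type ones for Rbfox3, and Fmr1-/y replicate 5 lies apart from the others for Srsf6 and Hnrnpul1.

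Cpeb proteins bind TTTTAT and regulate poly(A) tail length and translation at synapses. Cpeb1 was the highest at 39.4 CPM per kilobase in wild-type libraries, followed by Cpeb4 at 22.7, Cpeb2 at 8.48 and Cpeb3 at 7.51. Cpeb4 (chromosome 11, 31870104 to 31935635) was at 118, 156 and 159 CPM in wild-type libraries and 107, 125 and 157 CPM in Fmr1-/y libraries, and its log2 fold change was -0.17 (SE 0.10, edgeR adjusted p 0.740). The spread was wide within both genotypes, where wild-type replicates 1 and 6 and Fmr1-/y replicates 1, 2 and 5 were at 107 to 122 CPM. Cpeb1, Cpeb2 and Cpeb3 had log2 fold changes of -0.0046 (SE 0.10), -0.12 (SE 0.10) and -0.02 (SE 0.07). The Staufen proteins carry mRNAs along dendrites, and Stau1 stood at 20.6 and Stau2 at 8.64 CPM per kilobase in wild-type libraries. Stau2 was at 55.4, 57.0 and 58.7 CPM in wild-type libraries and 51.9, 53.7 and 61.5 CPM in Fmr1-/y libraries, so that 5 Fmr1-/y libraries lay below all wild-type ones and the remaining one above them. Its log2 fold change was -0.06 (95% interval -0.18 to 0.06, edgeR adjusted p 0.875), and that of Stau1 was 0.0078 (SE 0.05). The ratio of Stau1 to Stau2 per kilobase was 2.39 ± 0.0998 in wild-type and 2.51 ± 0.154 in Fmr1-/y libraries, with 4 Fmr1-/y libraries above and 1 below all wild-type ones.

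Igf2bp mRNAs, which are best known from embryonic tissue and tumours, were near the limit of detection. Igf2bp2 (chromosome 16, 22059009 to 22163299) had 30 to 62 reads per wild-type and 18 to 72 reads per Fmr1-/y library. In CPM it was at 0.749, 1.04 and 1.49 in wild-type and 0.375, 0.655 and 1.55 in Fmr1-/y libraries, with 5 of 6 Fmr1-/y libraries below all wild-type ones and replicate 6 above them. The log2 fold change was -0.57, the largest in size among the members, with an SE of 0.34 and an edgeR adjusted p of 0.731. Igf2bp3 had 2 to 26 reads per library and a log2 fold change of -0.23 (95% interval -1.52 to 1.06). Igf2bp1 had 0 to 15 reads and was without a read in 3 wild-type libraries and 1 Fmr1-/y library, and its interval of -1.93 to 2.64 shows that a difference was not detectable at this depth.

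Further genes of RNA processing were read from lists outside the 13 families. In edgeR, 0 of their genes passed the adjusted threshold, against 4 of the 17823 genes tested (0.0224%). Over all genes, 9153 of 17823 estimates were above 0. At an unadjusted p under 0.05, 3.67% of all genes were lower and 4.29% higher in Fmr1-/y libraries. Of 9 kinases that phosphorylate SR proteins, 6 had estimates above 0 and 3 below, with a median log2 fold change of 0.01 and 0 at an unadjusted p under 0.05. The smallest p was that of Clk4, at 25.8 ± 2.58 CPM in wild-type libraries against 31.3 ± 10.03 CPM in Fmr1-/y libraries, with a log2 fold change of 0.28 (SE 0.15, edgeR adjusted p 0.697). Of 36 core spliceosome genes, 24 estimates were above 0 and 12 below (median 0.04). At an unadjusted p under 0.05, 1 was lower and 0 were higher. Snrpn, an imprinted gene for a neuronal Sm protein, had the smallest p. Its exons overlap those of Snurf on the same strand, so its reads are uncertain. It was at 2.01 ± 0.533 CPM in wild-type libraries against 1.12 ± 0.443 CPM in Fmr1-/y libraries, 5 of which lay below all wild-type ones, and its log2 fold change was -0.84 (SE 0.26, edgeR adjusted p 0.371, DESeq2 adjusted p 0.134). Of 32 other splicing regulators, 19 estimates were above and 13 below 0 (median 0.01). At an unadjusted p under 0.05, 1 was higher and 0 were lower. The smallest p belonged to Esrp1, an epithelial factor near the limit of detection. It was at 0.0549 ± 0.0508 CPM in wild-type libraries against 0.225 ± 0.117 CPM in Fmr1-/y libraries. Its log2 fold change was 1.98 (SE 0.76, edgeR adjusted p 0.499). Of 29 other RNA-binding proteins of mRNA transport, stability and translation, 18 estimates were below and 11 above 0 (median -0.01), with 0 at an unadjusted p under 0.05. There, Rbm3, a cold-inducible protein, had the smallest p at 98.5 ± 12.3 against 110 ± 12.9 CPM and a log2 fold change of 0.16 (SE 0.09, edgeR adjusted p 0.707).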

How the data were processed

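RNA of HA immunoprecipitates from 6 wild-type and 6 Fmr1-/y pools was sequenced as stranded libraries with single reads of 50 bases. The authors aligned them with TopHat 2.1.1 and Bowtie 2.2.8 to mm10 with UCSC gene models, dropped alignments with over 3 mismatches, counted with HTSeq 0.6.1p1 (union mode, strand used) and deposited raw counts per gene. Genes with 15 or more reads in total were kept. edgeR 4.0.16 (R 4.3.3; TMM, quasi-likelihood, no covariate) compared the genotypes over all 17823 genes, with p adjusted by Benjamini and Hochberg's method and called under 0.05. The SE is the size of the log2 fold change over the root of F. Levels are TMM-scaled CPM, and exon lengths, transcripts and motif sites come from GENCODE M21 and gene coordinates from RefSeq (both GRCm38); all 66 members had a length. The script for the test was tested on simulated data.

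The alternatives were DESeq2 1.42.0, limma 3.58.1 voom, other scalings and filters, the replicate number as a block and each library left out. Members and lists were chosen with earlier results of these data known. Genes named are the 12 members with the smallest p, all members outside Srsf and Hnrnp, the 5 highest and the lowest per kilobase in Srsf and Hnrnp, Fmr1, and the smallest p of each other list; 1 member is not reported here. Neither the labels nor the methods say whether replicate numbers pair the libraries. Over all genes the deviations of same-numbered libraries correlated between -0.08 and 0.09. Differently numbered libraries were not compared in this way. The values therefore cannot settle whether an effect was shared or how pools were handled.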

Additional observations from a re-analysis of the deposited data

Results flagged for a closer look

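In each genotype of 6 libraries, a library was picked out where its gap to the nearest other library, as a ratio of the whole range, exceeded Dixon's 95% critical value. Of 98 such sets, 6 met this, where chance gives about 1 in 20, or 4.9. Fmr1-/y replicate 5 accounted for 3 of them. It was high for Srsf6 (127 CPM against 99.4 to 108 in the other Fmr1-/y libraries, ratio 0.674), and without it the log2 fold change was 0.13 (edgeR adjusted p 0.715). It was high for Srsf1 (210 CPM against 157 to 174, ratio 0.669), where the log2 fold change without it was 0.06. It was low for Hnrnpul1 (56.3 CPM against 71.4 to 76.6, ratio 0.741), where the log2 fold change without it was -0.07.

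Celf4 was low in wild-type replicate 1 (383 CPM against 471 to 521, ratio 0.638), and without that library its log2 fold change was -0.18 (edgeR adjusted p 0.581). Igf2bp2 was high in Fmr1-/y replicate 6 (1.55 CPM against 0.375 to 0.683, ratio 0.738), and without it the log2 fold change was -0.92 (edgeR adjusted p 0.343). Stau2 was high in Fmr1-/y replicate 4 (61.5 CPM against 51.9 to 54.4, ratio 0.741), and without it the log2 fold change was -0.10 (edgeR adjusted p 0.638).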

How the results depend on the processing

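No member passed the adjusted threshold under any alternative run. Over all genes DESeq2 called 84, and the other runs 1 to 6. The members at an unadjusted p under 0.05 with a lower level in Fmr1-/y libraries, 2 in the main edgeR fit, were 1 without scaling factors, 4 with the replicate block and 0 to 4 with 1 library left out. Those with a higher level, 1 in the main fit, were 4 without scaling factors and 0 to 3 with 1 library left out. Both counts were 0 without Fmr1-/y replicate 5, and 4 and 3 without Fmr1-/y replicate 4. The cause was not tested. The block changed no other call, and whether the replicate numbers pair the libraries is not known. The median log2 fold change of the members ran from -0.04 to 0.0018 with 1 library left out, and was 0.0067 without scaling factors, which moved the median of all genes to 0.028. Of 977 fold changes of the 49 named members under alternatives, 44 changed sign, in 15 genes, the largest of them 0.35 in size in the main fit (Igf2bp1), and all 196 levels stayed within 1 SD. Depth limits the Igf2bp genes and Mbnl3, at 72 reads per library or fewer.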
